A study of Mus musculus with 12 samples.

Results

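Acetylation of lysine 27 of histone H3 (H3K27ac) that was called at 2% oxygen but not at 21% oxygen, on or close to trimethylated lysine 4 of the same histone (H3K4me3), is described here in mouse mesenchymal stem cells (MSCs). The 332 intervals were chosen by the peak lists themselves: each stood in the hypoxia H3K27ac list, shared no base with the normoxia H3K27ac list, and lay on H3K4me3, or at most 1000 bp away from it, in at least 1 of the H3K4me3 lists. They were 332 of the 589 hypoxia-only H3K27ac intervals and of the 15203 intervals of the whole hypoxia list. Among the 9681 hypoxia intervals at or near H3K4me3, 3.43% were hypoxia-only, and the other 9349 were shared with normoxia. Because the choice used both H3K27ac lists, these counts are a description and not a finding.

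The cells came from the bones of mice aged 3 to 5 months and are given as bone-marrow MSCs in the sample labels. In culture the medium was changed on day 3, cells were passaged on day 5 and MSCs were sorted on day 12. By the study's description the cells were first grown at 2% oxygen, and sorted cells were then split, with one part left at 2% oxygen (hypoxia) and the other shifted to 21% oxygen (normoxia) for several days before the experiments. According to the study's methods the sort kept cells with Sca-1 and CD140a (PDGFRA) on the surface and removed cells with CD45 or Ter-119. The 12 chromatin immunoprecipitation libraries formed 6 groups of 2, one group for each of H3K27ac, H3K4me3 and input chromatin at each oxygen level. No genetic change or drug distinguished the groups, so oxygen was the only labelled difference.

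H3K4me3 marks the promoters of genes that are active or poised for activity, whereas H3K27ac marks promoters and enhancers that are in use. A promoter may carry H3K4me3 without H3K27ac, and acetylation may also spread beyond the promoter into the gene or the upstream sequence. In MSCs, low oxygen is the condition of the bone marrow niche, and these cells can become bone, cartilage or fat cells.

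The labelled cell type was checked at gene starts. All 5 stromal genes read (Pdgfrb, Prrx1, Twist1, Col1a1 and Col1a2) carried both marks at both oxygen levels, as did Pdgfra. Ly6a, which encodes Sca-1, carried H3K27ac without H3K4me3. Among haematopoietic genes, Ptprc, which encodes CD45, and Spi1 and Cd3e carried neither mark, whereas Cd68 carried both and Csf1r carried H3K27ac alone. Of 4 endothelial genes, Kdr carried H3K4me3, and none carried H3K27ac. None of these genes had one of the 332 intervals within 1000 bp of a start.

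What a called difference means depends on the lists. There were 4 lists, one per mark and oxygen level, each made by the authors from both libraries of a group. Wherever intervals of different lists overlapped they were identical, so the lists form a single joint segmentation with boundaries at multiples of 500 bp. With 1 list per group there is no value per library, no depth and no spread between replicates. Each share below therefore comes with a 95% Wilson interval that covers counting error only, no difference between the oxygen levels was tested, and neighbouring intervals are not independent. The list score, whose definition was not given, ran from 50 to 160 with a further value of 1000.

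Promoters where H3K27ac was called at 2% oxygen alone are shown first by their sequence. The 6 genes with the highest-scoring intervals that held a coding start, with no normoxia H3K27ac beside them, were Penk, Mta3, Mllt6, Atad2, Rnf187 and Zrsr1. The sequence just upstream of a start in the interval was taken from RefSeq's promoter table (GRCm38.p6, the same assembly as mm10) for Mllt6, Rnf187 and Zrsr1, and the other 3 are named only. Pparg, Sfrp2 and Slc16a3 were added after their values were seen, as genes of fat cell formation, Wnt signalling and lactate export. Each sequence is written 5′ to 3′ on the strand of the gene, lies upstream of a RefSeq start, stops before any annotated exon, and is 200 bases long, or 193 at Pparg. Capitals mark every match, on either strand, to the GC box GGGCGG bound by Sp1-like factors, to the CCAAT box, and to the TATA box written as TATAAA. They also mark the core of the hypoxia response element bound by hypoxia-inducible factors, which is either ACGTG or the variant GCGTG.
Mllt6: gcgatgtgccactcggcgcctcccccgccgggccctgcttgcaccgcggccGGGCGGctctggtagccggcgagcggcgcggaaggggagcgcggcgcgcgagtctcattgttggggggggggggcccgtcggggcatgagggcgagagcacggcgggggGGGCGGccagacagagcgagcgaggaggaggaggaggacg
Rnf187: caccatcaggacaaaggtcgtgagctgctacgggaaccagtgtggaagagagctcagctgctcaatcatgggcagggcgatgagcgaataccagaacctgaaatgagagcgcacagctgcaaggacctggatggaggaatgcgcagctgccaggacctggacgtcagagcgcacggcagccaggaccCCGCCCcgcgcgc
Zrsr1: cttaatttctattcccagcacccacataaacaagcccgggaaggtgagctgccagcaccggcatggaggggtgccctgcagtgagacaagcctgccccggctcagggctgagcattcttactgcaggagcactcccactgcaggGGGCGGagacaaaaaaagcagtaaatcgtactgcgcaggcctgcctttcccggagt
Pparg: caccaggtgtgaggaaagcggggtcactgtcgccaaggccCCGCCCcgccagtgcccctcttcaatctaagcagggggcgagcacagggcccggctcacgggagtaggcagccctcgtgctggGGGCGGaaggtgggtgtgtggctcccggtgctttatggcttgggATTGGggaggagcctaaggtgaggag
Sfrp2: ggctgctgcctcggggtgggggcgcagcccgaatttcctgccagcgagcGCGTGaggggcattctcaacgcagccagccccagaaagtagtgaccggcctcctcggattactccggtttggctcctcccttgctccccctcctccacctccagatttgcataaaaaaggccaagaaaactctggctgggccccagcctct
Slc16a3: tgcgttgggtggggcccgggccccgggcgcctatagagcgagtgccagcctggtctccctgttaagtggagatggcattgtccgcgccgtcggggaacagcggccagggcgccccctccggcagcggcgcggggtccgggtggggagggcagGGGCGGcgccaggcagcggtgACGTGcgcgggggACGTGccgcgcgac

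The Mllt6 stretch lies on the plus strand at chr11:97663212-97663411, and that of Rnf187 on the minus strand at chr11:58938917-58939116. The Zrsr1 stretch is on the plus strand at chr11:22971805-22972004. The other 3 are also on the plus strand, Pparg at chr6:115362099-115362291, Sfrp2 at chr3:83766121-83766320 and Slc16a3 at chr11:120948867-120949066. The Pparg stretch belongs to a RefSeq start at chr6:115362349 and ends 58 bases before it. It does not cover the sequence upstream of the other coding start in that interval, at chr6:115360951. The GC box occurred 2 times in Mllt6 and in Pparg and 1 time in Rnf187, Zrsr1 and Slc16a3. The hypoxia response core occurred 2 times in Slc16a3, as ACGTG, and 1 time in Sfrp2, as GCGTG. In the other 4 stretches these letters were not found.

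To ask whether acetylation was new at a promoter or an extension of a domain acetylated at both oxygen levels, each interval was sorted by its surroundings in normoxia. An interval was an extension if it, or the run of touching hypoxia-only intervals it belonged to, touched a normoxia H3K27ac interval. It was new if no normoxia H3K27ac lay within 1000 bp of that run or on its H3K4me3 site. The remaining intervals were called detached. These words compare the hypoxia list with the normoxia list and give no order in time, since 2% oxygen was the starting condition. By this sorting 195 of 332 intervals were extensions (58.7%, 95% CI 53.4 to 63.9), 132 were new (39.8%, 95% CI 34.6 to 45.1) and 5 were detached (1.51%, 95% CI 0.645 to 3.48). This order turned when intervals scoring under 73, the 25th percentile of the hypoxia list, were left out. Of the 81 that remained, 45 were new (55.6%, 95% CI 44.7 to 65.9) and 33 were extensions (40.7%, 95% CI 30.7 to 51.6). These Wilson intervals overlapped.

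The position relative to H3K4me3 follows in part from these definitions, since an interval beside H3K4me3 that touches an acetylated promoter is an extension by rule. Of the 132 new intervals, 121 lay on H3K4me3 (91.7%, 95% CI 85.7 to 95.3), whereas 142 of the 195 extensions lay beside H3K4me3 and not on it (72.8%, 95% CI 66.2 to 78.6). In total, 176 of the 332 intervals overlapped H3K4me3 (53.0%, 95% CI 47.6 to 58.3) and 152 touched it. Only 4 were separated from it, 2 by 500 bp and 2 by 1000 bp. The 2 at the limit had H3K27ac scores of 50 near Mgst3 and 60 near Gadd45b, and the 2 just outside it, at 1500 bp, had scores of 64 near Gm28035 and 107 near Ezh1.

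In the opposite direction there were 75 intervals, since 0.796% of the 9424 normoxia H3K27ac intervals at or near H3K4me3 were absent from hypoxia. New acetylation made up 18 of these 75 (24%, 95% CI 15.7 to 34.8) and extension 55 (73.3%, 95% CI 62.4 to 82). H3K4me3 lay under 23 of them (30.7%, 95% CI 21.4 to 41.8). The Wilson intervals of the new share and of the extension share overlapped between the oxygen levels, while those of the share on H3K4me3 did not. These differences were not tested.

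**Figure D1:**
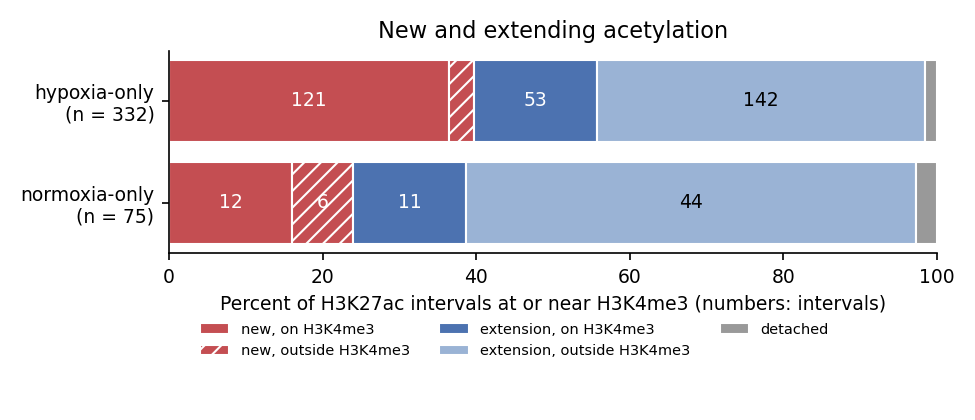
Share of H3K27ac intervals found at 1 oxygen level and at or near H3K4me3 (x axis, percent) that were new, extending or detached, for hypoxia-only and normoxia-only intervals. Numbers in the bars count intervals, and the new intervals on H3K4me3 number 121 in hypoxia and 12 in normoxia.

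H3K4me3 itself was called at both oxygen levels under all 176 intervals that overlapped it. Its score was the same in the hypoxia and the normoxia list at 176 of 176, and also at all 7276 intervals with shared H3K27ac and at all 7125 without H3K27ac. The H3K4me3 score thus carried no information on oxygen, and a change in the amount of H3K4me3 was not analysed here. The level of the score was alike across the groups: its median was 130 under hypoxia-only H3K27ac (quartiles 126 and 138), 130 under shared H3K27ac (126 and 137) and 127 without H3K27ac (120 and 133).

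Most of the new acetylation lay over gene starts. A protein-coding start lay within the interval at 109 of the 132 new intervals (82.6%, 95% CI 75.2 to 88.1) and within 1000 bp at 114. For new intervals on H3K4me3, 107 of 121 held a start (88.4%, 95% CI 81.5 to 93), beside 6774 of 7276 shared H3K27ac intervals on H3K4me3 (93.1%, 95% CI 92.5 to 93.7). The whole H3K4me3 site was acetylated in hypoxia at 82 of the 121. At the remaining 39 the acetylated share of the site was at least 57.1%. Of 13141 joined H3K4me3 sites, 5684 had no normoxia H3K27ac at or near them, and 125 of these had it in hypoxia (2.20%, 95% CI 1.85 to 2.61). Their median width was 3000 bp, compared with 2500 bp for the 5559 sites without H3K27ac at either oxygen level and 3000 bp for the 7457 sites acetylated in normoxia.

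The highest list scores among new intervals with a coding start were at Penk and Mta3. Penk, which encodes the precursor of the enkephalin opioid peptides, had H3K27ac in hypoxia on chr4:4137001-4140000 with a score of 1000 and none in normoxia, while H3K4me3 had a score of 120 in each list. At Mta3, a subunit of the NuRD chromatin remodelling and deacetylase complex, the interval chr17:83705001-83708000 also had a score of 1000 in hypoxia, no entry in normoxia, and H3K4me3 at 137 in each list. Both intervals were 3000 bp wide and held the start. Another new interval scored 1000, at a start of Hyi, which this annotation does not count as protein-coding; it was named after its value was seen.

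The next 6 new intervals with a coding start had scores between 119 and 131 in hypoxia and no entry in normoxia. Mllt6, which encodes a PHD finger protein found in leukaemia fusions, scored 131 over 6500 bp. Atad2, which encodes a bromodomain ATPase that binds acetylated histones, also scored 131, over 3000 bp. Rnf187, encoding a ubiquitin ligase, scored 129. Zrsr1, encoding a zinc finger protein related to a splicing factor, scored 127, and Tacc3, a protein of the mitotic spindle, scored 125. Specc1, encoding a coiled-coil protein, scored 119. All 8 lay on H3K4me3, as did 121 of all 132 new intervals. Since the 8 were chosen by score, their scores stood by construction above the median of the new intervals, 64 (quartiles 55 and 78). The shared intervals at or near H3K4me3 had a median score of 129 (quartiles 89 and 1000).

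Over all promoter windows of 300 bases, 250 before and 50 after the start, ACGTG or GCGTG was present in 70 of the 120 windows whose start lay in a new interval (58.3%, 95% CI 49.4 to 66.8). The share was 67.5% of 8466 windows with shared H3K27ac and H3K4me3 at the start (95% CI 66.5 to 68.5), 62.5% of 5122 windows with H3K4me3 and no H3K27ac (95% CI 61.2 to 63.8), and 43.8% of all 32817 windows. The Wilson interval at new intervals lay above the share of all windows and overlapped those of both other groups. For ACGTG alone the shares were 18.3% at new intervals (95% CI 12.4 to 26.2), 28.3% at shared H3K27ac (95% CI 27.4 to 29.3), 24.0% at H3K4me3 without H3K27ac (95% CI 22.8 to 25.2) and 19.6% over all windows. The Wilson interval at new intervals thus lay below that of the shared group and overlapped that of the group without H3K27ac, and the difference was not tested. GGGCGG was present in 73.3% of the new windows (95% CI 64.8 to 80.4), 70.2% of the shared, 65.3% of those without H3K27ac and 35.6% of all. CCAAT was present in 41.7%, 36.7%, 36.6% and 37.4% of the same groups, and TATAAA in 8.33%, 5.67%, 6.11% and 13.6%. Both forms of the core, and the GC box, contain the dinucleotide CpG. The median CpG content of these windows, as observed over expected, was 0.698 at new intervals, 0.827 at shared H3K27ac, 0.727 at H3K4me3 without H3K27ac and 0.383 over all windows. Where the start lay in an extension, as at Slc16a3, 12 of 32 windows had ACGTG or GCGTG (37.5%, 95% CI 22.9 to 54.8). ACGTG alone was present in 4 of these 32 (12.5%, 95% CI 4.97 to 28.1), and their median CpG content was 0.685. Both Wilson intervals held the share of all windows, and the difference was not tested. Of the 221 genes with one of the 332 intervals at a start, 176 were found in the RefSeq table by symbol.

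Over the whole intervals the classes differed in median sequence content, although the quartile ranges of new intervals and extensions on H3K4me3 overlapped. The CpG observed-to-expected ratio had a median of 0.542 at new intervals on H3K4me3 (quartiles 0.453 and 0.627), close to the 0.584 of shared intervals on H3K4me3 (0.484 and 0.685). It was 0.403 at extensions on H3K4me3 (0.271 and 0.527) and 0.202 at extensions outside H3K4me3 (0.169 and 0.26), beside 0.204 at shared intervals outside H3K4me3. Median GC content was 50.9% over all 332 intervals, 53.6% in new intervals and 49.4% in extensions, compared with 51.0% in shared and 44.8% in normoxia-only intervals at or near H3K4me3. Over whole H3K4me3 sites the median ratio was 0.520 with H3K27ac in hypoxia only, 0.546 without H3K27ac and 0.572 with H3K27ac in normoxia. GC content differed between the classes and between the oxygen levels, and its part in the calls was not tested.

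**Figure D2:**
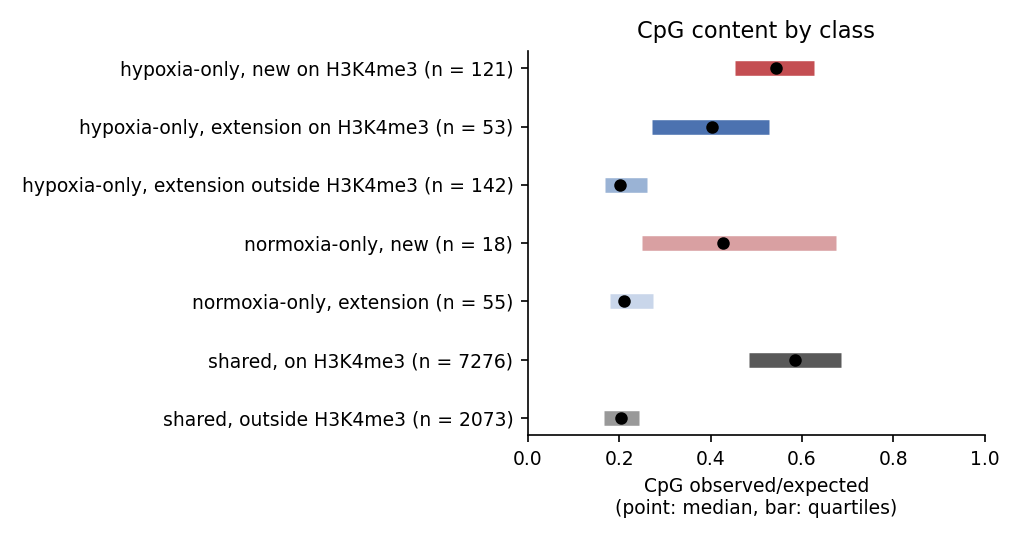
CpG observed-to-expected ratio of H3K27ac intervals at or near H3K4me3 (x axis), with the median as a point and the quartiles as a bar for each class. New hypoxia-only intervals on H3K4me3 (median 0.542) lie near the shared ones (0.584), and extensions outside H3K4me3 lie lowest (0.202).

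Nearly all extensions fell into 3 kinds according to what they touched. The largest, 140 of 332 intervals (42.2%, 95% CI 37 to 47.5), lay outside H3K4me3 and touched a normoxia interval with both marks. A coding start lay within 1000 bp at 41 of these 140, and within the interval at only 9 (6.43%, 95% CI 3.42 to 11.8). Their median width was 4000 bp and their median score 55.5, and 93 of the 140 scored under 60. In the second kind, 28 intervals lay on H3K4me3 beside a normoxia interval with both marks, and acetylation covered more of an H3K4me3 site in hypoxia than in normoxia. These were narrow, with a median of 1000 bp, and 7 of the 28 held a start. In the last kind, 25 intervals lay on H3K4me3 and touched only H3K27ac without H3K4me3, and 23 of these 25 held a coding start (92%, 95% CI 75 to 97.8). There the neighbouring sequence was acetylated in normoxia, while the promoter itself was acetylated in hypoxia only. The 2 remaining extensions lay outside H3K4me3 beside H3K27ac alone. Of all 195 extensions, 23 touched normoxia H3K27ac on both sides and so filled a gap. Across all kinds, 1 run of extensions touched an interval called in normoxia alone.

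This last kind, at promoters beside acetylated sequence, holds several of the best-scoring extensions. At Zfp395, which encodes a zinc finger protein, the interval chr14:65358001-65361500 scored 1000 in hypoxia, held the start, and joined 22000 bp of H3K27ac present in normoxia. At Slc16a3, which encodes the lactate exporter MCT4, the start lay in chr11:120948001-120952500 with a score of 109, beside 40000 bp acetylated at both oxygen levels, and the domain measured 44500 bp in hypoxia. Ano6, encoding a phospholipid scramblase, scored 118 over 3500 bp beside 13500 bp of normoxia H3K27ac. The promoter of Txnrd2, the mitochondrial thioredoxin reductase, scored 117, and that of Rex1bd scored 116. In each of these, H3K4me3 lay at the start at both oxygen levels and the normoxia H3K27ac list had no entry there.

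Other high-scoring extensions touched both marks. Nsd1, which encodes a methyltransferase of histone H3 lysine 36, carried 3 hypoxia-only intervals, of which chr13:55210501-55212000 scored 1000, and its acetylated domain was 1000 bp wide in normoxia and 4000 bp in hypoxia. At Crebzf, a bZIP transcription factor gene, an interval of 1000 bp with a score of 1000 held the start at the end of a domain of 15000 bp. Rrp36, a gene of ribosomal RNA processing, had a score of 134 in an interval of 3500 bp that lay 649 bp upstream of the start and filled a gap between normoxia intervals. Col6a1, which encodes a chain of collagen VI, had an interval of 2500 bp with a score of 120 starting 168 bp downstream of the start. With a further interval in the gene, its domain measured 9000 bp in normoxia and 29000 bp in hypoxia.

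**Figure D3:**
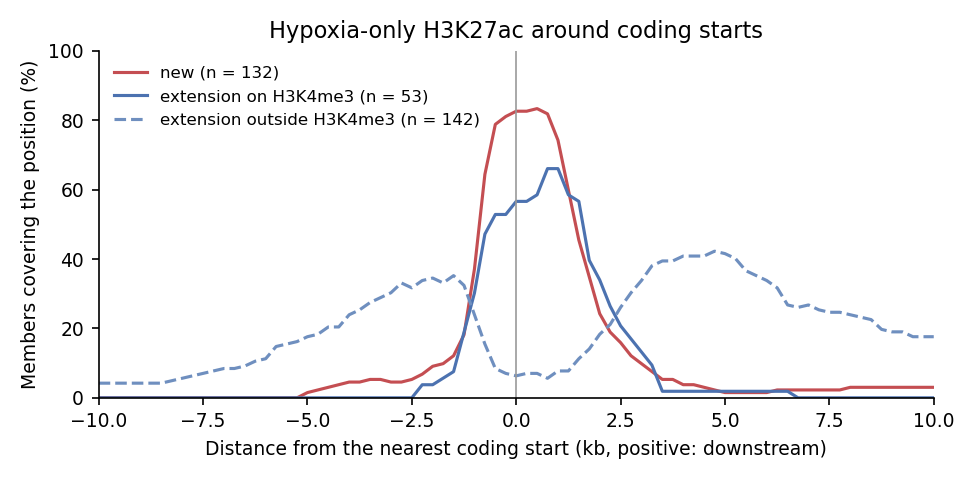
Percent of hypoxia-only H3K27ac intervals (y axis) that cover each position around the nearest coding start (x axis, kb, positive values downstream), for new intervals and for extensions on and outside H3K4me3. New intervals cover the start itself in 82.6%, whereas extensions outside H3K4me3 cover it in 6.34% and are most frequent 4750 bp downstream (42.3%).

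Extensions outside H3K4me3 lay on either side of the gene start, and those downstream of it had the larger median width. Upstream of the nearest coding start there were 64, with a median width of 3000 bp (quartiles 1000 and 5000), and downstream 69, with a median of 4500 bp (quartiles 3000 and 8000). At 5000 bp downstream 41.5% of the 142 intervals covered the position (95% CI 33.8 to 49.8), and at 5000 bp upstream 17.6% did (95% CI 12.2 to 24.7). At 2500 bp the shares were 26.1% downstream (95% CI 19.5 to 33.8) and 31.7% upstream (95% CI 24.6 to 39.7). Of the upstream intervals 36 of 64 lay outside coding genes, compared with 5 of 69 downstream. This contrast follows in large part from the definition of the sides, since sequence just downstream of a coding start lies within that gene.

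The acetylated domains were measured from end to end. The extensions belonged to 188 domains of touching H3K27ac intervals that had normoxia acetylation within them. The normoxia H3K27ac in a domain had a median of 4500 bp (quartiles 3000 and 9000), and the hypoxia domain a median of 9250 bp (6000 and 15625). The added sequence had a median of 3500 bp, or 57.1% of the normoxia width, and ranged from 500 to 46000 bp. In 66 of 188 domains at least 100% of the normoxia width was added, and in 43 under 25%. These widths were fixed in part by the choice of hypoxia-only intervals, and normoxia-only H3K27ac that touched a domain was not counted in its normoxia width. A domain could therefore only be wider in hypoxia.

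**Figure D4:**
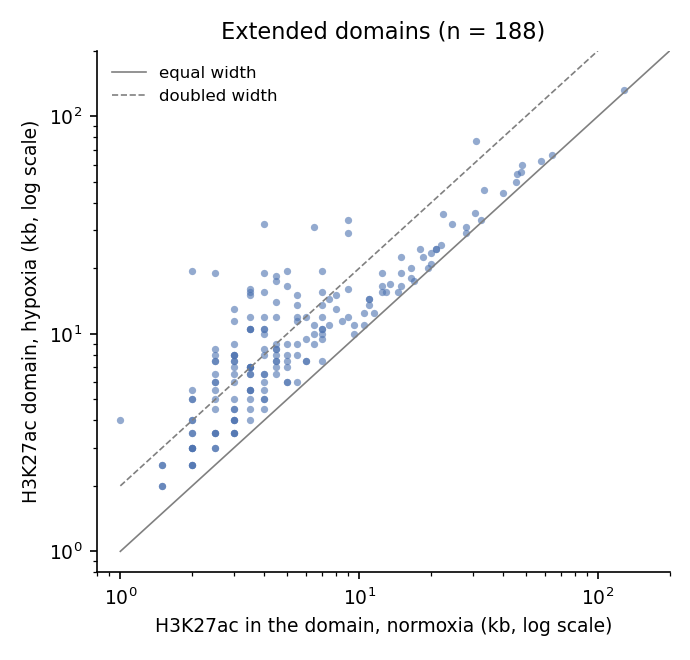
Width of the H3K27ac domain in hypoxia (y axis, kb, log scale) against the normoxia H3K27ac within it (x axis, kb, log scale) for the 188 extended domains, one point per domain. All points lie above the line of equal width by construction, and 66 lie on or above the dashed line that marks an addition of 100%.

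The widest intervals were low in score. At Il6st, encoding the gp130 receptor subunit of the interleukin-6 family, chr13:112469001-112515000 added 46000 bp with a score of 58 to 31000 bp of normoxia H3K27ac. This interval held 3 of the 6 coding starts of Il6st, although H3K4me3 was not called within it. The other 3 starts lay in H3K4me3 and in normoxia H3K27ac. Wasf2, an organiser of actin at the cell edge, had 28000 bp added to 4000 bp, with a score of 67. Plekhf1, a protein of endosomes and lysosomes, and Cep68, a centrosome protein, each had an interval of 24500 bp with scores of 55 and 50. The fifth, at Bmf, a gene of the apoptotic BH3-only family, was new and not an extension. It spanned 19500 bp with a score of 70 and held 1 of the 2 coding starts, and H3K4me3 was not called within it. The other start of Bmf lay in H3K4me3 and not in normoxia H3K27ac. All but Wasf2 and Bmf thus scored at or under the median of all 332 intervals, 59.

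Low scores were the rule. Of the 332 intervals, 171 scored from 50 to 59 and 22 had the lowest value, 50. The 25th percentile of the hypoxia list, 73, lay above 251 of the 332. Only 6 scored 1000, 3 new and 3 extensions, and all 6 lay on H3K4me3. Among hypoxia intervals at or near H3K4me3 that scored 73 or more, 81 of 8018 were hypoxia-only (1.01%), and 75.3% of them lay on H3K4me3.

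At the level of genes, 221 protein-coding genes had one of the intervals within 1000 bp of a start. Of the 12912 coding genes with H3K4me3 there, 218 did, or 1.69%. The start base itself was in a hypoxia-only interval at 157 of the 221 (71.0%, 95% CI 64.7 to 76.6) and in normoxia H3K27ac at 48 (21.7%, 95% CI 16.8 to 27.6). A further 10 genes had some starts in a hypoxia-only interval and others not, and 6 had the start in neither list. At 125 genes whose best-scoring interval was new, 118 had the start in it. At 93 genes with an extension, 48 had the start in normoxia H3K27ac and 36 in the hypoxia-only interval. Another annotated start, over 1000 bp from any of the intervals, lay in normoxia H3K27ac at 24 of the 93 genes with an extension and at 6 of the 125 with a new interval, Ggta1, Osbpl3, Rab13, Rai1, Specc1 and Tenm4. These 6 were named after their values were seen.

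Of the 114 new intervals with a coding start within 1000 bp, 12 had starts on both strands (10.5%, 95% CI 6.12 to 17.5), beside 12.7% of shared intervals. Examples, again chosen after their values were seen, were Psmb9 and Tap1, genes of antigen processing that share a promoter, with a score of 77, and Noa1 and Polr2b, the latter encoding a subunit of RNA polymerase II, with a score of 57. A further 7 of the 132 new intervals had only a noncoding start within 1000 bp, including that of Mir193b with a score of 55.

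Named pathways were read next, from 11 lists holding 652 genes, and a gene counted if one of the intervals lay within 1000 bp of a start. Over all lists 21 of 609 genes with H3K4me3 did so (3.45%, 95% CI 2.27 to 5.21), against 1.69% of all coding genes with H3K4me3. The lists hold well-studied genes, were drawn up with earlier results of these data known, and were not tested against other genes.

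In the fat cell list 4 of 39 genes with H3K4me3 had an interval (10.3%, 95% CI 4.06 to 23.6), and all 4 were new acetylation at a start. Pparg, the master regulator of fat cell formation, had H3K27ac in hypoxia on chr6:115360001-115362500 with a score of 101, none in normoxia, and H3K4me3 with a score of 129 in each list. Its interval held 2 of its 3 annotated coding starts, and the remaining start lay in neither H3K4me3 nor normoxia H3K27ac. Pnpla2, which encodes the triglyceride lipase of fat cells, scored 61, Stat5a, a transcription factor downstream of growth hormone, scored 62, and Gata2, a transcription factor that restrains fat cell formation, scored 56. A further start of Gata2 lay just outside its interval and in neither H3K27ac list.

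In the list of low oxygen response and glycolysis 3 of 56 genes had an interval (5.36%, 95% CI 1.84 to 14.6). Slc16a3 is described above. Pfkp, which encodes a phosphofructokinase of glycolysis, had new acetylation over its start with a score of 68 and H3K4me3 at 127 in each list. At Aldoa, the glycolytic aldolase, the start counted lay in normoxia H3K27ac, and an interval of 6500 bp with a score of 78, 554 bp upstream, joined normoxia intervals on both sides.

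In the list of extracellular matrix and adhesion 4 of 65 genes had an interval (6.15%, 95% CI 2.42 to 14.8). Thbs2, encoding thrombospondin 2, scored 58 and Tnc, encoding tenascin C, scored 52, both new over the start. Plod1, a collagen lysyl hydroxylase, was acetylated at the start beside H3K27ac alone with a score of 54, and Col6a1 is given above. Tnc was also the only 1 of 47 bone formation genes (2.13%, 95% CI 0.377 to 11.1).

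In Wnt signalling 2 of 67 genes had an interval (2.99%, 95% CI 0.823 to 10.3), both encoding secreted modulators of the pathway. Sfrp2, a secreted frizzled-related protein, scored 102 over 3500 bp, and Rspo2, an R-spondin that enhances Wnt signals, scored 101 over 4000 bp. Both were new, held the start, had no entry in the normoxia list, and had H3K4me3 at 1000 in each list. Among genes of the mitochondrial respiratory chain 3 of 66 had an interval (4.55%, 95% CI 1.56 to 12.5). The complex I subunit genes Ndufc1 (score 74) and Ndufa2 (score 65) had new acetylation at the start, and Atp5d, a subunit of the ATP synthase, had an extension with a score of 63 that lay 631 bp downstream.

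Among the enzymes and readers of histone acetylation 2 of 53 genes had an interval (3.77%, 95% CI 1.04 to 12.7), Atad2, given above, and Hat1, which acetylates newly made histone H4, with new acetylation at a score of 65. In the MAPK list there was 1 of 67, Rasa1, a GTPase activating protein for Ras, with an extension of 500 bp and a score of 57. No interval lay at the starts of 55 genes of BMP and TGF-beta signalling, which allows a share of up to 5.45% by the limit of 3 counts over the number of genes, or at those of 35 genes of citrate export and acetyl-CoA supply, which allows up to 8.57% by the same limit. The upper Wilson bounds were 6.53% and 9.89%.

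**Figure D5:**
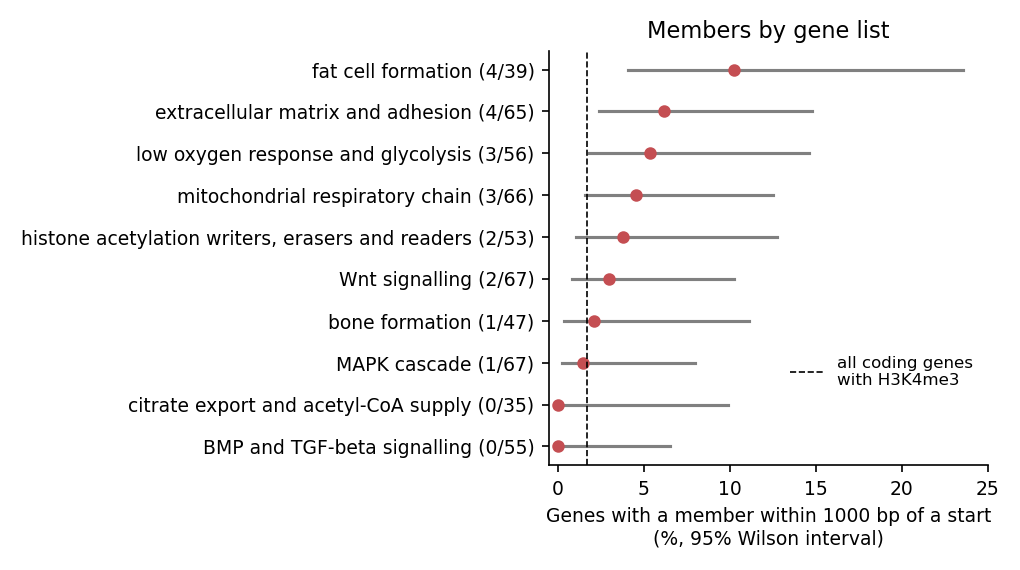
Percent of the genes of each list described here, among those with H3K4me3 at a start, that had a hypoxia-only H3K27ac interval within 1000 bp of a start (x axis, points, with 95% Wilson intervals as lines and counts beside the names). The dashed line marks all coding genes with H3K4me3, 1.69%, and the fat cell list stands highest at 10.3%.

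Other genes with new acetylation at the start were named after their values were seen. Txnip, an inhibitor of thioredoxin, scored 109, Ccn3, a matricellular protein, scored 108, and Marcksl1, an actin-binding protein, scored 117. Among surface proteins of stromal cells Cspg4, also called NG2, scored 51 and S1pr1, a sphingosine 1-phosphate receptor, scored 50, while Thy1 had an extension with a score of 55. The proton pump subunit genes Atp6v0a2 and Atp6v0b had new acetylation with scores of 59 and 54, and Atp6v0e had an extension with a score of 57.

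The intervals were spread over the genome. They lay on every chromosome except Y, from 4 on chromosome X to 34 on chromosome 11. As a share of the hypoxia H3K27ac intervals at or near H3K4me3 they ranged from 1.88% on chromosome 1 to 4.92% on chromosome 13. They belonged to 340 joined H3K4me3 sites, of which 330 had 1 such interval. Exons were covered by 233 of the 332 (70.2%), 39 lay within introns (11.7%) and 60 outside coding genes (18.1%).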

How the data were processed

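Reads were aligned by the authors with Bowtie2 to mm10, duplicates were removed with Picard, and the peak lists came from the differential mode of chromstaR. Tool versions are not given in the sources used here. The deposited lists hold a position and a score per interval, with 1 list for each mark and oxygen level made from both libraries, and no input values. The score is the authors' own and was used only to describe, rank and filter.

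Intervals were compared by shared bases in Python 3.11.15 with numpy 2.4.6, scipy 1.17.1 and pysam 0.24.0. Starts were those of protein-coding genes in the GENCODE M21 basic annotation, and sequence came from the same genome build. The sorting into classes was tested on simulated intervals. Genes were named by rule: the 8 highest-scoring new and the 8 highest-scoring extending intervals with a coding start within 1000 bp, the 5 widest, every listed gene with an interval (1 list is not reported here), and the 6 highest-scoring new intervals that held a start for sequence. The intervals and the gene lists were chosen with earlier results of these data known. Depth and replicate spread are unknown at this level. Alternatives covered the distance limits, the score, joining, sex chromosomes, the annotation and the region measured.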

Additional observations from a re-analysis of the deposited data

How the results depend on the processing

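No paired analysis was possible because a list pools the 2 libraries of its group, so that replicates can be neither matched nor left out. An alternative was taken as moved where it left the 95% interval of the reported value: 12 values did and 22 did not. A limit of 500 or 2500 bp to H3K4me3, autosomes alone, a gap of up to 500 bp counted as contact and 5000 bp required free of normoxia H3K27ac moved none of the shares they were applied to. Without intervals scoring under 73, the hypoxia-only share was 1.01% and the share on H3K4me3 75.3%. A coding start then lay within 1000 bp at 79.0% and within the interval at 66.7%. Extension was 40.7% and new acetylation 55.6%, so that new acetylation became more frequent, although the Wilson intervals of these 2 shares overlapped. Counting only overlap with H3K4me3 gave a hypoxia-only share of 2.36%, and joining H3K27ac intervals within 1000 bp gave 1.72%, since extensions then merged with the normoxia intervals they touch. A window of 2500 bp put a coding start near 81.3%, and starts of all annotated genes gave 69.0% within 1000 bp and 52.1% within the interval, as wider definitions must. The median GC content was 53.9% in the central 500 bp. The H3K4me3 score difference was 0 with and without scores of 1000, which says nothing about stability. No read counts were used, so the depth behind a call limits these shares to an unknown extent.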
